A study of Mus musculus with 19 samples.

Results

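The genes of the NRF2 system and of antioxidant defence described here are the regulators *Nfe2l2* and *Keap1*, the quinone reductase *Nqo1*, the glutathione genes *Slc7a11*, *Gclc*, *Gclm* and *Gpx4*, and the thioredoxin and peroxiredoxin genes *Txnrd1*, *Prdx1* and *Srxn1*. They were chosen by gene symbol, and all 10 were found among the 27299 genes of the deposited table. The RNA-seq data compared retinal microglia from 6 unlasered control samples with microglia from 6 samples taken 3 days after argon laser treatment of the retina (CNV d3, called laser here), a mouse model of choroidal neovascularization in which 6 burns were set per eye. All mice were 8 weeks old according to the methods. All samples of both groups were sorted as CD11b+CX3CR1+Ly6C-Ly6G- cells. The labels name C57BL/6J mice and CD45+ cells, whereas the methods name *Cx3cr1* GFP/+ mice on this background, which have 1 working *Cx3cr1* copy, and low CD45. Only the central retina, which holds the burns, was used in both groups, so a laser sample mixes cells near to and far from a lesion. The sources do not say how many mice went into a sample, so the p-values measure the spread between these samples.

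Values are given as normalized counts, which are read counts per gene divided by the size factor of the sample. Total reads on genes ran from 10963178 to 22335233 in control and from 23532260 to 29523018 in laser, so every laser sample was deeper than every control. Reads of *Ddx3y*, a gene of the Y chromosome, were at 0 in all 6 controls and in laser replicates 1 to 3, and lay between 1239 and 1450 normalized counts in laser replicates 4 to 6. *Xist*, which is transcribed from the inactive X chromosome, lay between 6522 and 9795 in control, between 3116 and 5245 in laser replicates 1 to 3, and at 0.866 or 0 in laser replicates 4 to 6. The labels give no sex, and results are therefore also given for laser replicates 1 to 3 and for 4 to 6 separately against all controls, a split chosen after the data were seen. Genes that mark microglia stayed abundant in both groups, with a summed level over 10 genes between 1194108 and 1353637 in control and between 668269 and 991482 in laser. In limma 6 of them were decreased, and *Itgam*, which encodes CD11b, was increased (log2FC = 0.72). Of the 10 monocyte markers, 6 were increased, and their sum lay between 231 and 1060 in control and between 5030 and 51943 in laser. It includes *Fn1*, which the paper reports among the top genes increased in CNV-associated microglia. The sum thus cannot be read as monocyte content alone. *Ly6c2*, the marker gated against, was at 0 in every control and between 1.73 and 25.1 in laser. All 10 cell division genes were increased, with sums between 568 and 1964 in control and between 11424 and 27015 in laser. Photoreceptor markers summed to between 807 and 7419 in control and between 615 and 12962 in laser, the highest in laser replicate 4, and limma called 0 of 10 (1 at an unadjusted p under 0.05), while edgeR and DESeq2 called *Sag* as increased (padj = 0.020 and 0.0025). Neutrophil and T cell markers summed to at most 22.3 in any sample, with 0 called of 6 and of 5 by limma, edgeR and DESeq2 (1 and 0 at an unadjusted p under 0.05 in limma). Of 6 markers of retinal pigment epithelium 0 were called by limma (1 at an unadjusted p under 0.05) and by edgeR, and 1 by DESeq2, *Rdh5* as decreased (padj = 0.031). In the other lists limma called 1 of 5 of border macrophages (*Cbr2*, increased), 2 of 6 of endothelium (*Kdr* increased, *Pecam1* decreased) and 3 of 8 of Mueller glia and astrocytes (*Dkk3* and *Aldh1l1* increased, *Slc1a3* decreased). Of these, edgeR did not call *Cbr2*, *Dkk3* or *Aldh1l1*, and DESeq2 did not call *Cbr2* or *Aldh1l1*. DESeq2 called *Mrc1* of border macrophages as decreased. The border macrophage sum lay between 35.7 and 1726 in control and between 155 and 469 in laser. For endothelium it was 521 to 990 and 479 to 965, and for Mueller glia and astrocytes 6803 to 9780 and 5377 to 7648. The part of these cells in the values given here was not tested. Depth and sex entered limma refits only, and their share in the values was not tested either. With every sample thinned at random to 10963178 reads, *Prdx1* (padj = 0.025), *Gpx4* (0.019), *Slc7a11* (0.013) and *Nfe2l2* (0.044) were called. With *Ddx3y* as a covariate *Prdx1* (padj = 0.046), *Gpx4* (0.0155) and *Slc7a11* (0.039) were called, and *Nfe2l2* was not (0.26). In such bulk samples, fewer cells of a type and less RNA per cell cannot be told apart.

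NRF2, the protein made from *Nfe2l2*, is a transcription factor that answers oxidants and electrophiles. In resting cells KEAP1 binds it and hands it to a ubiquitin ligase for destruction, and oxidized cysteines on KEAP1 stop this, so that NRF2 is controlled largely at the level of its protein. Freed NRF2 pairs with small MAF proteins on antioxidant response elements and raises enzymes that make and recycle glutathione, reduce thioredoxin and remove quinones. Glutathione and thioredoxin are the thiols with which peroxidases, among them GPX4 and PRDX1, clear peroxides. In the retina, where light, oxygen and polyunsaturated lipids meet, microglia also take up debris and make oxidants themselves.

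The antioxidant response element is the letter pattern that links several of these genes, so the stretches before the start site that hold its core are shown. The core TGACNNNGC was searched on both strands from 250 bases before to 50 bases after the start site in the RefSeq promoter sequences of the mouse genome (GRCm38.p6). It was found in 5 of the 9 genes with an entry, *Nfe2l2*, *Gclm*, *Srxn1*, *Txnrd1* and *Prdx1*, and in 14.0% of the 27025 symbols in the table. No entry was at hand for *Gclc*. No match lay in the windows of *Keap1*, *Nqo1*, *Slc7a11* and *Gpx4*, which says only that these letters are not in these windows. In the lines below the capitals mark the match, read 5′ to 3′ on the strand of the gene:
Prdx1, chr4:116685436-116685504, plus strand: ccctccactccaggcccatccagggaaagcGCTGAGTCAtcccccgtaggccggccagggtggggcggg
Txnrd1, chr10:82859084-82859152, plus strand: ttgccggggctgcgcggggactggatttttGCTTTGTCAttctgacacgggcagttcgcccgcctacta
Gclm, chr3:122245393-122245461, plus strand: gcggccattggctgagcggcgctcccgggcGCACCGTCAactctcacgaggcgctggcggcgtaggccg
Nfe2l2, chr2:75704865-75704913, minus strand: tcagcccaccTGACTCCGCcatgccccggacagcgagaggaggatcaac
The first 3 hold the core on the opposite strand and the *Nfe2l2* window holds it on the strand of the gene. Counted from the start site, the match began at -133 in *Prdx1*, at -92 in *Txnrd1* (in 1 of its 3 windows), at -134 in *Gclm* and at -240 in *Nfe2l2*, while that of *Srxn1* began 28 bases past the start. In *Prdx1* the same letters also hold TGAGTCA, the pattern that AP-1 factors bind. A match of letters is a description and shows no binding.

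The bulk samples of cells sorted as microglia from the lasered retina held more mRNA of the peroxide-removing enzymes *Prdx1* and *Gpx4*, and of the cystine carrier *Slc7a11*, and less of *Nfe2l2*. The calls of *Slc7a11* and *Nfe2l2* depended on the tool, and with 3 laser samples at a time *Gpx4* alone was called, in replicates 1 to 3. *Prdx1* rose 1.56-fold and *Gpx4* 1.46-fold in the group means, while *Nfe2l2* fell by 19.2%. The remaining 6 genes did not pass the test. In the limma fit over all 27299 genes (Benjamini-Hochberg adjusted p, padj, under 0.05), 3 of the 10 genes were increased and 1 was decreased, where 8.29% of all genes were increased and 4.57% were decreased. Among the 9713 genes with a mean of at least 100 normalized counts, of which 15.3% were increased and 10.8% decreased, were 8 of the 10, with 2 increased and 1 decreased. With the threshold of the study for differentially expressed genes (DEG), an absolute log2 fold change (log2FC) above 1.5 besides, 1 of the 10 stayed, *Slc7a11*, against 3.91% of all genes as increased DEG. The median log2FC of the 10 genes was 0.58, against 0.15 over all genes. In none of the 10 did the 6 laser values lie wholly above or wholly below the 6 control values, as they did above for 4.64% and below for 2.83% of all genes.

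**Figure D1:**
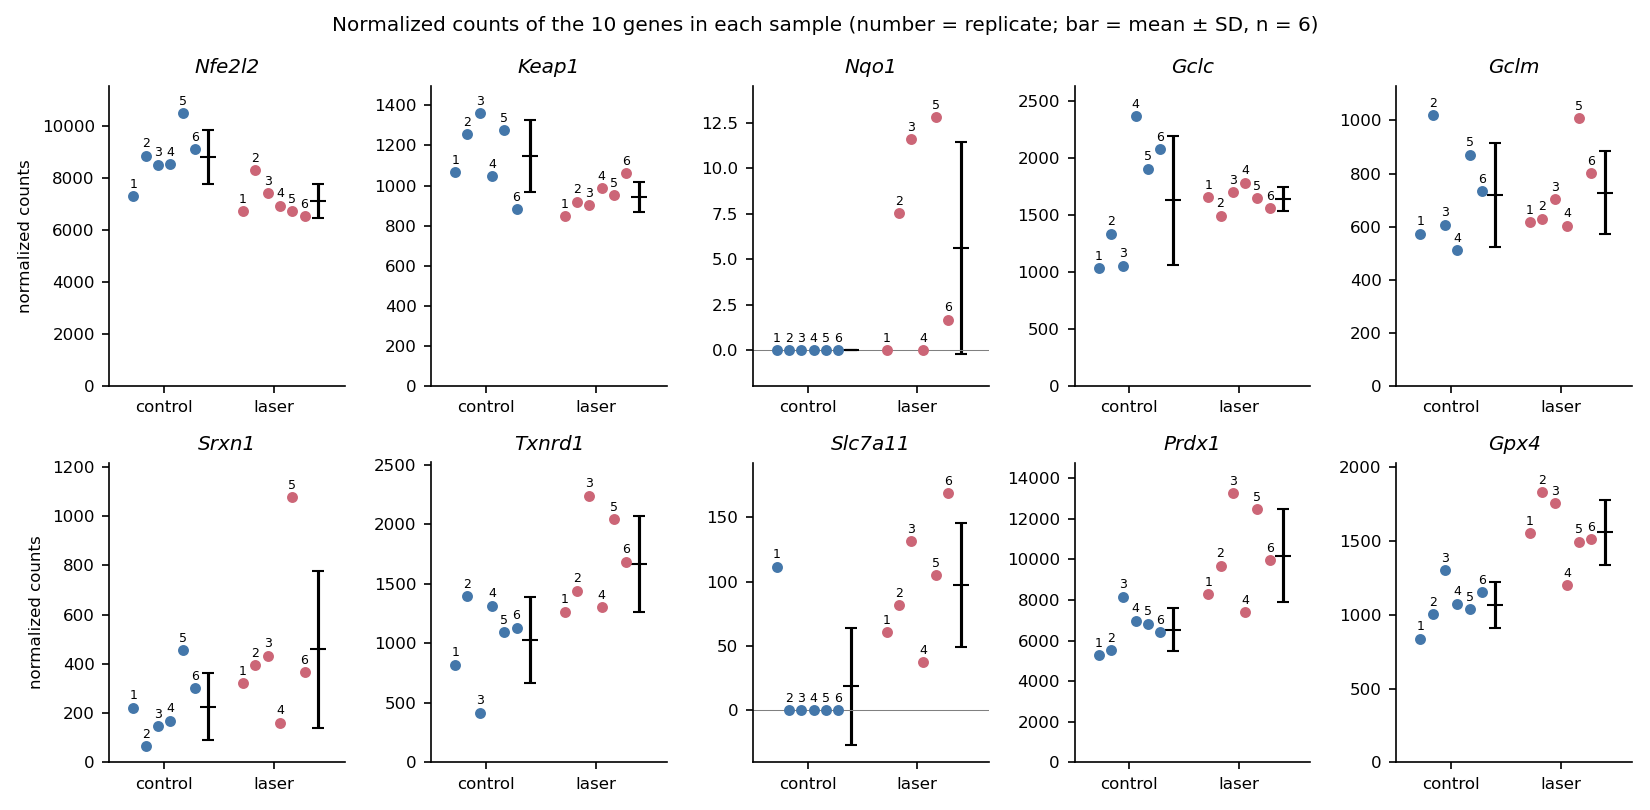
Normalized counts of each of the 10 genes in the 6 control and 6 laser samples (1 point per sample, numbered by replicate, bars: mean ± SD). *Prdx1* and *Gpx4* are higher in 5 of 6 laser samples than in any control, *Slc7a11* is at 0 in 5 of 6 controls, and *Gclc* spreads more in control than in laser.

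Of the regulators, *Nfe2l2* (ENSMUSG00000015839, chr2:75675513-75704641, minus strand) had 7317, 8867, 8527, 8535, 10493 and 9111 normalized counts in control replicates 1 to 6. The laser samples had 6718, 8320, 7423, 6944, 6734 and 6547. Laser replicates 1, 4, 5 and 6 lay below every control, and replicates 2 and 3 within the control range. The group means were 8809 ± 1031 (SD, n = 6) and 7114 ± 664 (SD, n = 6), with log2FC = -0.30 ± 0.09 (SE), padj = 0.038 in limma and an exact permutation p of 0.0065 for this gene alone. The call was lost with TMM factors (padj = 0.052), in edgeR (padj = 0.064) and with 3 laser samples at a time, with log2FC = -0.23 (padj = 0.34 in limma) for replicates 1 to 3 and -0.38 (padj = 0.073) for replicates 4 to 6. It was kept in 6 of 15 other settings and in 3 of the 12 fits that left out 1 sample each, in which padj ranged from 0.015 to 0.083.

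*Keap1* (ENSMUSG00000003308, chr9:21229730-21239361, minus strand), the adaptor that marks NRF2 for destruction, had 1068, 1255, 1360, 1048, 1277 and 882 in control and 846, 919, 902, 987, 953 and 1062 in laser. Laser replicate 1 alone lay below all controls, of which control replicate 6 was the lowest. Its log2FC was -0.27 ± 0.13 (SE) with a 95% interval from -0.54 to -0.00078 and padj = 0.20 in limma, and without control replicate 6 it was -0.34 (padj = 0.044). Its exons share 510 bases with the antisense gene *Gm16754*, and the libraries do not mark the strand, so reads there cannot be assigned to either. The log2 ratio of *Nfe2l2* to *Keap1* within a sample, which hardly depends on the size factor, was 2.95 ± 0.26 (SD, n = 6) for control. For laser it was 2.91 ± 0.20 (SD, n = 6). The difference of -0.04 was smaller than the spread between samples (exact permutation p = 0.79).

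Of 10 other genes that control NRF2, its ubiquitin ligase, its MAF partners, the competing repressor *Bach1* and others, limma and edgeR called 0 as increased and 1 as decreased, with a median log2FC of 0.11 in limma. At an unadjusted p under 0.05, 2 were higher in limma, and DESeq2 called 2 as increased, *Maff* (padj = 0.0057) and *Nfe2l1* (padj = 0.035). The gene that fell was *Gsk3b*, a kinase that marks NRF2 for destruction without KEAP1, with 1751 to 2344 normalized counts in control (median 2073) and 1362 to 1593 in laser (median 1431), log2FC = -0.49 ± 0.10 (SE), padj = 0.0045 in limma. These groups did not overlap, and the call was kept with laser replicates 4 to 6 (padj = 0.015) but not with 1 to 3 (padj = 0.053). The most abundant gene of the list was *Sqstm1*, which encodes the adaptor p62 that binds KEAP1, with a mean of 8268 in control and 6800 in laser and padj = 0.10.

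*Nqo1* (ENSMUSG00000003849, chr8:107388225-107403206, minus strand), the quinone reductase often read as a marker of NRF2 activity, was near the limit of detection. It was at 0 in all 6 controls, where 3 reads would have given 3.01 to 5.96 normalized counts. The laser samples had 0, 7.53, 11.6, 0, 12.8 and 1.66, which are 40 reads in all. Replicates 2, 3 and 5 lay above what 3 reads would give in any control, and replicates 1 and 4 were at 0. The padj was 0.064 in limma and 0.048 in edgeR on the recovered reads, and the exact permutation p was 0.061. Because the laser mean of 5.61 is below the limit that 0 reads allow in the shallowest control, no fold is given.

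The other NRF2 targets were mixed. Of 14 measured genes, limma called 3 as increased, 0 as decreased and 11 as neither, with a median log2FC of -0.04. At an unadjusted p under 0.05, 2 were lower in limma, and DESeq2 called 4 as increased and 1 as decreased, where edgeR called 3 and 0. *Hmox1*, which encodes the heme oxygenase, rose, with 385 to 674 normalized counts in control (median 513) and 819 to 2232 in laser (median 1596), log2FC = 1.49 ± 0.23 (SE), padj = 0.00062 in limma. *Ftl1*, the light chain of ferritin, which stores the iron that heme breakdown frees, rose from a median of 9642 to 17113, log2FC = 0.79 ± 0.12 (SE), padj = 0.00040. In both genes the groups did not overlap. *Ugdh*, which makes UDP-glucuronic acid for conjugation, rose with overlapping groups, log2FC = 0.63, padj = 0.027. The ferritin heavy chain *Fth1*, the most abundant of the list, had a mean of 71153 in control and 85637 in laser and did not pass (log2FC = 0.27, padj = 0.063). *Hmox1* and *Ftl1* kept their calls with either set of 3 laser samples, with a log2FC of *Hmox1* of 1.47 in replicates 1 to 3 (padj = 0.026 in limma) and 1.52 in replicates 4 to 6 (padj = 0.013), whereas *Ugdh* lost it with both (padj = 0.13 and 0.20).

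Glutathione synthesis starts from cystine, which SLC7A11 brings into the cell. *Slc7a11* (ENSMUSG00000027737, chr3:49892526-50443614, minus strand) had 112 normalized counts in control replicate 1 and 0 in the other 5 controls. The laser samples had 60.6, 82.0, 132, 37.2, 105 and 169. All 6 laser samples thus held reads, between 43 and 203 each, and control replicate 1 lay within their range with 104 reads. The laser mean was 97.5 ± 48.0 (SD, n = 6), 5.24-fold the control mean of 18.6 ± 45.6 (SD, n = 6), and at least 16.4-fold higher than the level that 3 reads give in the shallowest control, which stands for the 5 controls at 0. The limma fit gave log2FC = 5.32 ± 1.12 (SE), padj = 0.0055, and the exact permutation p was 0.011. Of the fits on the recovered reads, edgeR (log2FC = 2.39, padj = 0.23) and DESeq2 (log2FC = 2.39, padj = 0.37) did not call it, and limma voom did (log2FC = 6.06, padj = 0.00048). Without control replicate 1 the log2FC in limma was 6.46 (padj = 7.1e-05). With laser replicates 1 to 3 it was 5.32 and with 4 to 6 it was 5.33, with padj of 0.12 in each. Its partner chain in the carrier, *Slc3a2*, was far more abundant and fell, from a median of 16174 to 12870, log2FC = -0.28 ± 0.08 (SE), padj = 0.038 in limma, with overlapping groups.

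*Gclc* (ENSMUSG00000032350, chr9:77754535-77794485, plus strand) and *Gclm* (ENSMUSG00000028124, chr3:122245557-122270732, plus strand) encode the catalytic and the modifier subunit of the ligase of the rate-limiting step to glutathione. *Gclc* had 1032, 1337, 1054, 2370, 1905 and 2075 in control and 1657, 1495, 1702, 1782, 1648 and 1560 in laser. Controls fell into a low set, replicates 1 to 3, and a high set, replicates 4 to 6, and all laser values lay between them, with a coefficient of variation of 34.7% in control and 6.2% in laser. *Gclm* had 573, 1020, 607, 510, 871 and 735 in control and 616, 630, 702, 604, 1008 and 802 in laser, with ranges that overlap almost fully. The log2FC was 0.08 for *Gclc* with a 95% interval from -0.33 to 0.50, and 0.03 for *Gclm* with an interval from -0.37 to 0.44. Neither passed in limma (padj = 0.78 and 0.92), and the values do not exclude changes within these intervals, which are not adjusted over the genes. The sign of the *Gclm* value turned with laser replicates 1 to 3 alone (-0.11). Some exon bases of *Gclm*, 540 in all, are shared with the antisense transcript *Gm17494* and the pseudogene *Gm6061*, where reads were not assigned. The log2 ratio of *Gclc* to *Gclm* was 1.15 ± 0.64 (SD, n = 6) for control. For laser it was 1.20 ± 0.31 (SD, n = 6), a difference of 0.05 (exact permutation p = 0.87).

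Among 18 other glutathione genes, 5 were increased, 1 (*Slc3a2*) was decreased and 12 were not called, with a median log2FC of 0.38. *Gpx3*, the secreted glutathione peroxidase, rose, with 0 to 349 normalized counts in control (median 42.3) and 399 to 1149 in laser (median 773), padj = 0.0054 in limma, and the groups did not overlap. *Glrx*, the glutaredoxin that removes glutathione from proteins, rose from a median of 819 to 1455, log2FC = 0.93 ± 0.20 (SE), padj = 0.0071, also without overlap. *Mgst1*, a membrane-bound glutathione transferase, was low throughout, at 0 to 24.1 in control and 10.3 to 75.3 in laser (padj = 0.0498), and neither edgeR (padj = 0.25) nor DESeq2 (padj = 0.18) called it. The increased *Gpx1* and *Mgst3* had a log2FC of 0.80 and 0.68. With either set of 3 laser samples *Gpx1* kept its call and the other 5 genes of this list that limma had called lost theirs, with padj from 0.054 (*Mgst3*) to 0.31 (*Mgst1*) in replicates 1 to 3 and from 0.105 (*Slc3a2*) to 0.20 (*Mgst3*) in replicates 4 to 6. In edgeR *Mgst1*, *Mgst3* and *Slc3a2* were not called.

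*Slc7a11* is also a known target of ATF4, the factor of the amino acid and stress response. Of 9 genes of this arm, 3 were increased and 1 was decreased, with a median log2FC of 0.55. Of all genes 8.29% were increased and 4.57% decreased, and of those with a mean of at least 100 normalized counts 15.3% and 10.8%. These shares also stand beside the counts of the other lists above and below. Whether a single list differs from them was not tested. *Psat1*, *Phgdh* and *Shmt2*, enzymes of serine and glycine synthesis, rose. The values of *Psat1* were 317 to 745 in control (median 525) and 1020 to 2344 in laser (median 1689), log2FC = 1.6 ± 0.22 (SE), padj = 0.00026 in limma. For *Shmt2* the log2FC was 0.86 (padj = 0.0077) and for *Phgdh* it was 0.48 (padj = 0.015). *Atf4* itself, the most abundant of the list, fell from a median of 2723 to 1960, log2FC = -0.45 ± 0.10 (SE), padj = 0.0086, with overlapping groups. With 3 laser samples at a time *Psat1* kept its call in both sets, *Atf4* and *Phgdh* kept it in replicates 1 to 3 and lost it in 4 to 6 (padj = 0.075 and 0.11 in limma), and *Shmt2* lost it in both (padj = 0.135 and 0.116).

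*Gpx4* (ENSMUSG00000075706, chr10:80047166-80056439, plus strand) encodes the selenium-containing peroxidase that reduces lipid peroxides in membranes with glutathione and so holds off ferroptosis. It had 838, 1004, 1304, 1077, 1039 and 1154 in control and 1556, 1833, 1756, 1202, 1496 and 1515 in laser. Of the laser samples 5 lay above every control, and replicate 4 lay within the control range, below control replicate 3. The means were 1069 ± 155 (SD, n = 6) and 1560 ± 222 (SD, n = 6), log2FC = 0.54 ± 0.13 (SE), padj = 0.013 in limma and exact permutation p = 0.0043. The call was kept in all 12 fits that left out 1 sample, with padj up to 0.031. It was also kept in laser replicates 1 to 3 alone (log2FC = 0.69, padj = 0.023) but not in replicates 4 to 6 alone (log2FC = 0.40, padj = 0.16). The pseudogene *Gpx4-ps2*, a near copy whose shared reads were not counted, had a mean of 50.2 in control and 70.1 in laser.

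Around GPX4, 2 of 9 genes that make or limit lipid peroxides were increased and 1 was decreased, with a median log2FC of 0.28. The increased genes were the lipoxygenases *Alox15* and *Alox12*, which add oxygen to polyunsaturated lipids. *Alox15* was at 0 in 5 of 6 controls and at 2.25 in the other, and at 42.1 to 85.0 in all laser samples, padj = 8.8e-05 in limma. *Alox12* was at 0 to 40.2 in control and 8.81 to 63.5 in laser, with overlapping groups (padj = 0.027 in limma). It was not called by edgeR (padj = 0.22) or DESeq2 (padj = 0.14) and lost its call with either set of 3 laser samples (padj = 0.13 and 0.22 in limma), while *Alox15* kept its call in all 4 of these fits. *Lpcat3*, which puts polyunsaturated fatty acids into membrane lipids, was the most abundant of the list and fell from a median of 5550 to 4056, log2FC = -0.44 ± 0.09 (SE), padj = 0.0040, a call lost in replicates 1 to 3 alone (padj = 0.079). Of 12 genes for selenoproteins and their synthesis, 2 were increased and 1 was decreased, with a median log2FC of -0.10. *Selenow* rose with log2FC = 1.40 ± 0.26 (SE), padj = 0.0024, and *Selenof* with 0.47 ± 0.09 (SE), padj = 0.0033. *Selenos* fell from a median of 5779 to 3323 without overlap, log2FC = -0.81 ± 0.11 (SE), padj = 0.00028 in limma. With 3 laser samples at a time *Selenos* kept its call in both sets, *Selenof* in replicates 1 to 3 alone, and *Selenow* in neither (padj = 0.107 and 0.059). The most abundant gene, the selenium carrier *Selenop*, had a mean of 37135 in control and 33916 in laser (padj = 0.55).

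*Prdx1* (ENSMUSG00000028691, chr4:116685544-116700822, plus strand) encodes an abundant cytosolic peroxidase that thioredoxin keeps reduced. It had 5273, 5519, 8155, 6985, 6826 and 6405 in control and 8289, 9690, 13276, 7391, 12459 and 9968 in laser. As for *Gpx4*, 5 laser samples lay above every control and replicate 4 did not. The means were 6527 ± 1054 (SD, n = 6) and 10180 ± 2299 (SD, n = 6), log2FC = 0.63 ± 0.15 (SE), padj = 0.010 in limma and exact permutation p = 0.0043. All 12 fits that left out 1 sample called it, with padj up to 0.045. With 3 laser samples the log2FC was 0.66 in replicates 1 to 3 (padj = 0.087) and 0.59 in replicates 4 to 6 (padj = 0.12), so that the size stayed and the call did not. Beside these values, the monocyte marker sums of laser replicates 1 to 6, which include *Fn1*, were 5030, 18913, 51943, 5604, 12726 and 37504. Their part was not tested.

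*Txnrd1* (ENSMUSG00000020250, chr10:82833951-82897712, plus strand), the cytosolic selenoenzyme that reduces thioredoxin with NADPH, had 821, 1395, 418, 1316, 1095 and 1132 in control and 1266, 1441, 2241, 1303, 2040 and 1686 in laser. Replicates 2, 3, 5 and 6 of the laser group lay above every control, with replicates 3 and 5 again the highest. The means differed by 1.62-fold, log2FC = 0.76 ± 0.26 (SE), and the gene did not pass in limma (padj = 0.071, exact permutation p = 0.015), while DESeq2 called it with log2FC = 0.69 (padj = 0.032). *Srxn1* (ENSMUSG00000032802, chr2:152105516-152111376, plus strand), the sulfiredoxin that repairs overoxidized peroxiredoxins, had 222, 65.8, 146, 169, 456 and 302 in control and 321, 395, 434, 161, 1077 and 366 in laser. The value of 1077 in laser replicate 5 stood apart from the other laser samples, and every other laser value was below the highest control. The log2FC was 1.02 ± 0.46 (SE), padj = 0.18 in limma. Without laser replicate 5 it was 0.72 (padj = 0.387 in limma), and without control replicate 2 it was 0.71 (padj = 0.391). The log2 ratio of *Srxn1* to *Prdx1* was -5.06 ± 0.93 (SD, n = 6) for control. For laser it was -4.67 ± 0.65 (SD, n = 6), a difference of 0.39 that was within the spread (exact permutation p = 0.43).

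**Figure D2:**
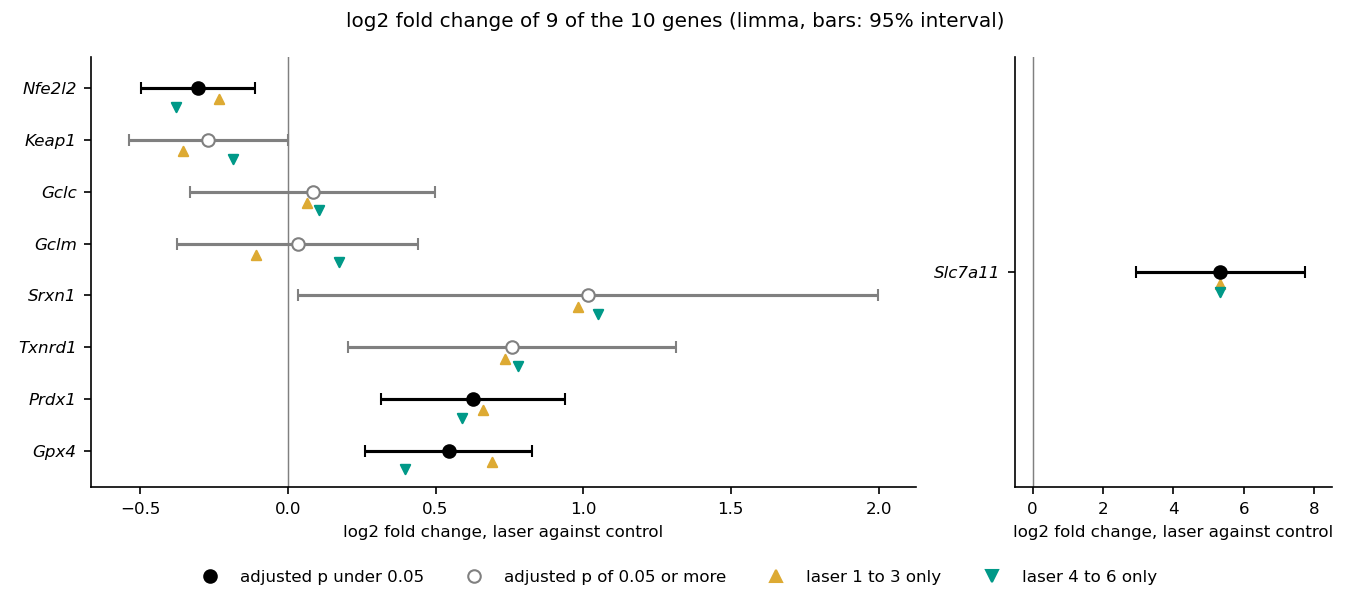
The log2 fold change of laser against control for 9 of the 10 genes, with 95% intervals from limma on log2(normalized counts + 1), where filled circles mark padj under 0.05 and triangles mark the values for laser replicates 1 to 3 and 4 to 6 alone. *Nqo1* is left out because all controls are at 0. The intervals of *Slc7a11*, *Prdx1* (0.63) and *Gpx4* (0.54) lie wholly above 0 and that of *Nfe2l2* (-0.30) wholly below it, and those of *Gclc* and *Gclm* straddle it. The intervals are not adjusted over the genes. Those of *Txnrd1* and *Srxn1*, which were not called, also lie wholly above 0, and that of *Keap1*, not called either, lies wholly below.

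Of 17 other genes of the thioredoxin and peroxiredoxin system, 4 were increased, 2 were decreased and 11 were not called, with a median log2FC of 0.33. *Prdx4*, the peroxiredoxin of the endoplasmic reticulum, rose, with 1495 to 2124 normalized counts in control (median 1698) and 2930 to 4508 in laser (median 3884), log2FC = 1.07 ± 0.13 (SE), padj = 0.00012 in limma. Thioredoxin itself, *Txn1*, rose from a median of 1266 to 2649, log2FC = 0.95 ± 0.16 (SE), padj = 0.0010. Both had groups that did not overlap. *Prdx5* (log2FC = 0.68, padj = 0.0074) and *Prdx2* (log2FC = 0.63, padj = 0.020) also rose. *Txnip*, which binds and blocks thioredoxin and was the most abundant gene of the list, fell, with 11710 to 16722 in control (median 14703) and 6557 to 9142 in laser (median 7801), log2FC = -0.91 ± 0.10 (SE), padj = 6.8e-05, without overlap. *Msrb2*, a methionine sulfoxide reductase of mitochondria, fell with log2FC = -0.87 ± 0.18 (SE), padj = 0.0048. *Prdx4*, *Txn1* and *Txnip* were called with either set of 3 laser samples, with a log2FC of 1.10 and 1.04 for *Prdx4*, 1.04 and 0.86 for *Txn1*, and -0.90 and -0.91 for *Txnip*. *Prdx5* (padj = 0.057 and 0.14 in limma) and *Prdx2* (padj = 0.078 and 0.26) lost their calls in both sets, and *Msrb2* lost its call in replicates 1 to 3 (padj = 0.11).

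NADPH, the source of electrons for glutathione and thioredoxin reductases, is made largely in the pentose phosphate pathway. Of 9 genes of its supply limma and edgeR called 1 as increased and 0 as decreased, with a median log2FC of 0.38 in limma. DESeq2 called 4 and 0, and at an unadjusted p under 0.05 limma had 6 higher and 0 lower. *Taldo1*, the transaldolase of that pathway and the most abundant of the list, rose from a median of 4906 to 7728 without overlap, log2FC = 0.62 ± 0.11 (SE), padj = 0.0015 in limma. Of 6 genes for the removal of superoxide and peroxide by dismutases, catalase and others, limma and edgeR called 0, with a median log2FC of 0.26 and 1 at an unadjusted p under 0.05 in limma. *Park7*, whose groups did not overlap, was called as increased by DESeq2 (padj = 0.0050) and by limma with laser replicates 1 to 3 alone (padj = 0.040). Catalase, *Cat*, was the most abundant of them, with a mean of 2674 in control and 3060 in laser (padj = 0.49). Over all 9 lists, 20 of 104 measured genes were increased (19.2%) and 7 were decreased (6.73%), beside 8.29% and 4.57% of all genes. Most listed genes were well expressed, and among all genes with a mean of at least 100 normalized counts 15.3% were increased and 10.8% decreased. The share of increased genes in the lists was thus near that of such genes, and the share of decreased genes was below it. In laser replicates 1 to 3 alone 11 and 3 were called, and in replicates 4 to 6 alone 8 and 6. In the other lists, as in the 10 genes, the monocyte markers, the cell division genes and depth differed between the same groups. Their part was not tested beyond a limma fit on samples thinned to equal depth. It called 22 listed genes as increased and 9 as decreased.

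**Figure D3:**
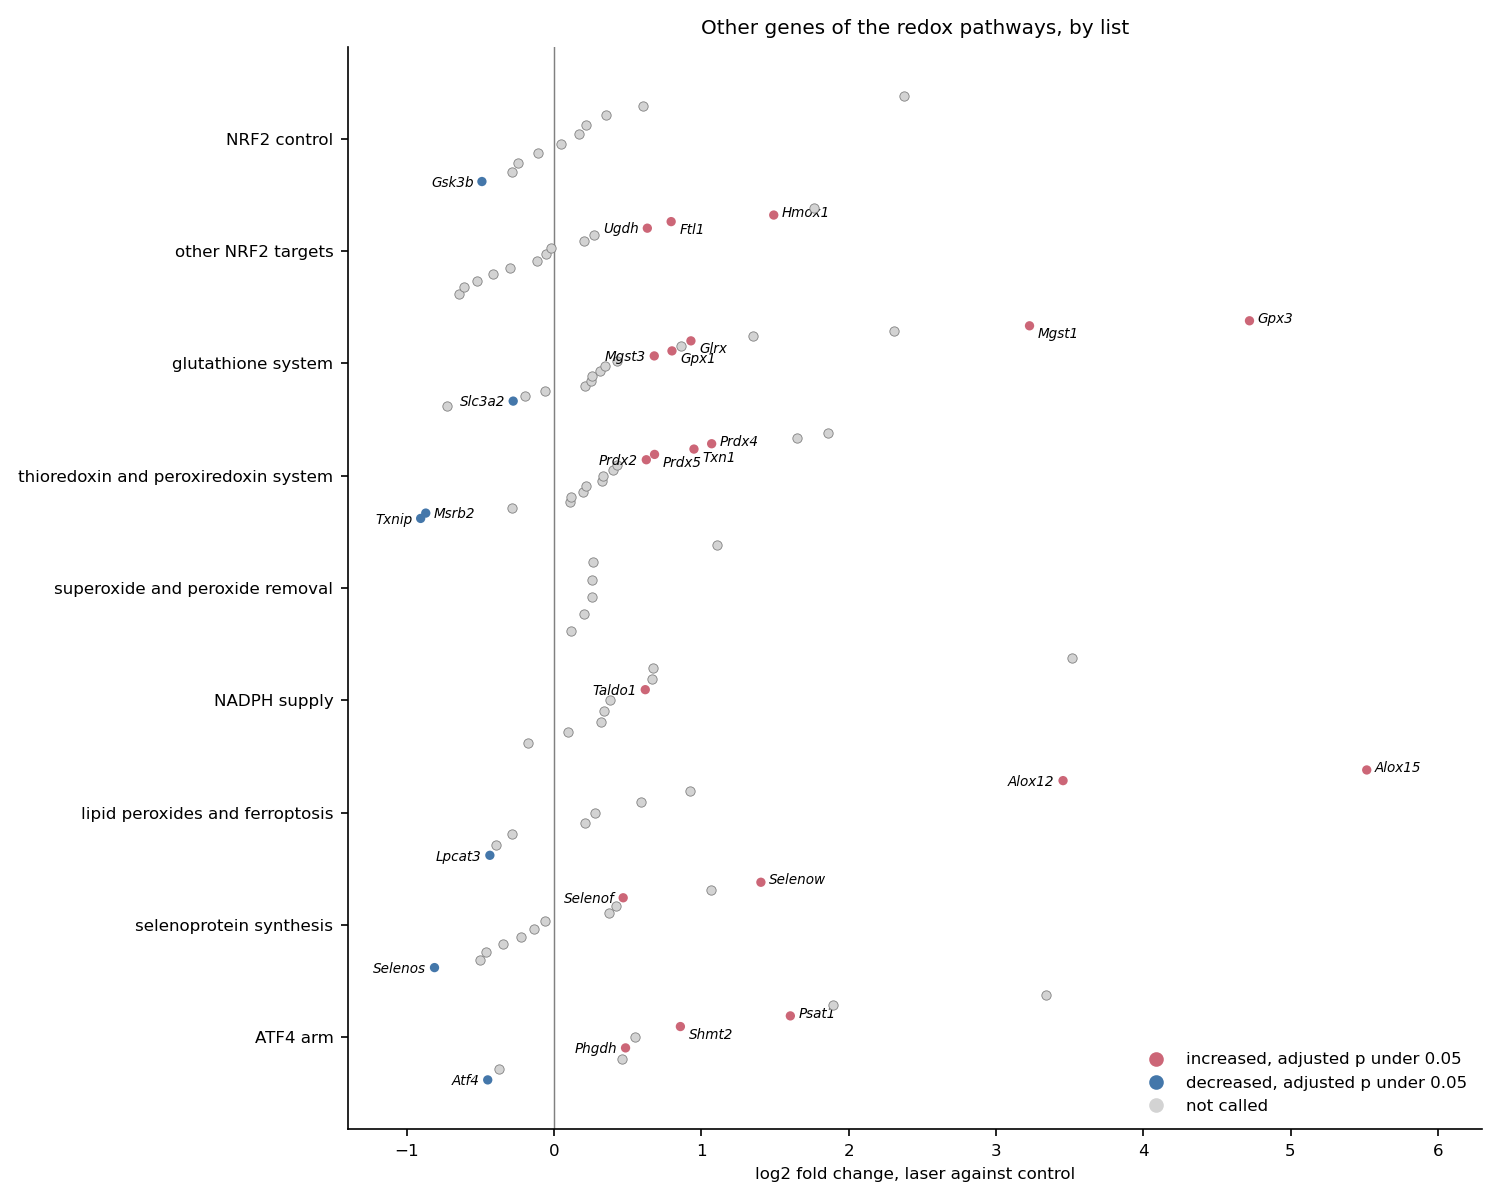
The log2 fold change of laser against control for 104 other genes of the redox pathways, 1 point per gene in 9 lists, with red for increased, blue for decreased and grey for not called (padj under 0.05 in limma). The thioredoxin list holds *Prdx4* (1.07) and *Txn1* (0.95) on the right and *Txnip* (-0.91) on the left, and the superoxide list holds no gene called by limma.

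Per kilobase of exon, where levels of different genes can be compared, *Nfe2l2* (2320 ± 272, SD, n = 6) and *Prdx1* (2145 ± 346) led in control, and their values overlapped. They were followed by *Gpx4* (620), *Gclc* (432), *Keap1* (245), *Txnrd1* (145), *Gclm* (114) and *Srxn1* (80.5), each overlapping its neighbour. *Slc7a11* (1.34) and *Nqo1* (0) were far below. In laser the order began with *Prdx1* (3345 ± 755, SD, n = 6), followed by *Nfe2l2* (1874 ± 175), *Gpx4* (905 ± 129) and *Gclc* (436 ± 27.0), and none of these 4 overlapped the next. *Txnrd1* (235), *Keap1* (201), *Srxn1* (163) and *Gclm* (116) overlapped in turn, and *Slc7a11* (7.0) and *Nqo1* (3.61) stayed lowest. Exon lengths were taken over all annotated exons of a gene, so a gene with long alternative ends is understated.

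**Figure D4:**
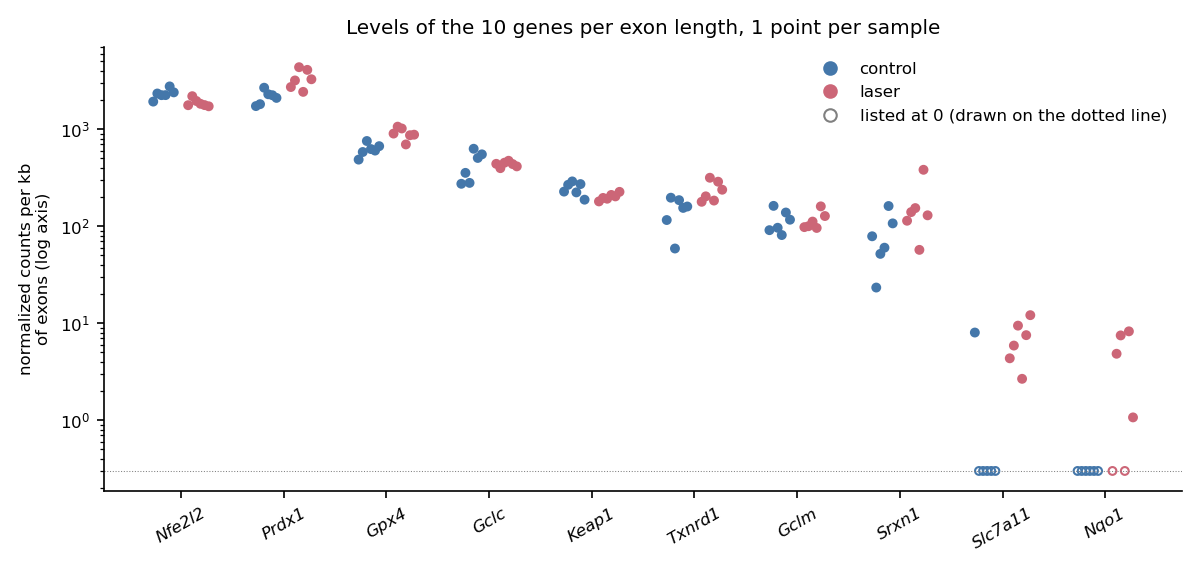
Normalized counts per kilobase of exon on a log axis for the 10 genes in order of their control mean, 1 point per sample, with open circles on the dotted line for samples listed at 0. *Nfe2l2* and *Prdx1* are highest, and *Slc7a11* and *Nqo1* lie far below the other 8.

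Laser samples differed in how many of the 10 genes left the control range. Replicates 3, 5 and 6 each had 5 genes above all controls, replicate 2 had 4 and replicate 1 had 2. In replicate 4 no gene lay above all controls. Below all controls lay *Nfe2l2* in replicates 1, 4, 5 and 6, and *Keap1* in replicate 1. The share of all genes outside the control range was not counted per sample. Replicate 4, which the labels list in 2 parts like the controls, had the highest photoreceptor sum (12962), followed by replicate 6 (11012). Its cell division sum (14496.5) was above every control. The monocyte marker sums of replicates 1 and 4 (5030 and 5604) were the lowest of the laser group. The part of these sums was not tested.

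Among the 9713 genes with a mean of at least 100 normalized counts, the profiles most like a called gene were sought by the root mean square difference over the 12 samples of log2(normalized counts + 1), each gene centred on its mean. For *Nfe2l2* these were *Uhrf2* (0.103) and *Nfu1* (0.108). For *Prdx1* they were *Cstb* (0.123) and *Atp5mpl* (0.130), and for *Gpx4* they were *Arf5* (0.092) and *Gltp* (0.120). For *Slc7a11* the nearest were *Exo1* (1.00) and *Cit* (1.04), whose differences were larger than those of the other 3 genes by far.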

How the data were processed

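RNA-seq of 6 control and 6 laser samples was analysed. The authors made cDNA from picogram amounts of RNA by template switching and PCR without molecular identifiers, mapped the reads with STAR 2.7.2b to the mouse genome (GRCm38, Gencode M25), merged the parts of each sample, counted reads with featureCounts 1.6.4 at default settings, which ignore strand and skip reads that map to several places or genes, and removed genes without reads. The deposited signal is the count divided by the DESeq2 1.22.2 size factor of the sample. The log2 fold changes and adjusted p-values that the authors deposited were not used. The labels list 19 samples, the controls and laser replicate 4 in 2 parts each, and these parts are 1 column each in the table.

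Every value was a whole multiple of its sample's step (100% within 0.001 reads), so that reads were recovered. Groups were compared with limma 3.58.1 in R 4.3.3 on log2(value + 1), with variance following the mean, over 27299 genes and without a filter, and fold changes of low genes depend on the pseudocount. Called genes have a Benjamini-Hochberg adjusted p under 0.05, and DEG also an absolute log2FC above 1.5. Of 200 genes with a simulated log2 change of 1 among 25727 in the comparison of laser with control, limma recovered 92 with 4 false calls. There edgeR recovered 112 with 16 false calls, and DESeq2 recovered 142 with 73 false calls, so a call by DESeq2 alone is less certain. The changed genes were drawn from those with a mean of at least 100 normalized counts, so the recovery does not apply to low genes such as *Nqo1* and *Slc7a11*. Fewer genes changed there than were called in the data, and each by more than *Nfe2l2*, *Gpx4*, *Prdx1* or *Txnrd1*. The recovery and the false calls thus do not carry over to these genes either. For single genes and ratios the two-sided exact permutation test ran over 924 labelings, whose smallest p is 0.0022, not adjusted over the 10 genes. The limit of 3 reads covers counting error only.

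The 10 genes and the lists were chosen with earlier results of these data known. Named from each list are up to 3 increased and 3 decreased genes of largest log2FC and the gene of highest control mean. *Gpx1*, *Mgst3*, *Prdx2*, *Park7*, *Maff*, *Nfe2l1*, *Bach1*, the marker genes and *Gm16754*, *Gm17494*, *Gm6061* and *Gpx4-ps2* were named besides, after their values were seen. The nearest profiles are the 2 genes of smallest difference. Positions and exon lengths come from Gencode M21 on GRCm38, to which 27238 of 27299 genes were matched. Alternatives were TMM and total-read scaling, pseudocounts of 0.5 and 5, a filter, no trend, edgeR 4.0.16, DESeq2 1.42.0, voom, thinning, a replicate block, a *Ddx3y* covariate and leaving samples out. The split of the laser group by *Ddx3y* was added after the data were seen.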

Additional observations from a re-analysis of the deposited data

Results flagged for a closer look

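Of 25 groups of 6 values tested, 2 held a sample far from the others, by a gap to the nearest sample that exceeded Dixon's 95% critical value as a share of the whole range. Chance gives such a gap in about 1 of 20 groups of normally distributed values. *Srxn1* stood at 1077 normalized counts in laser replicate 5, where the other 5 laser samples lay between 161 and 434. *Slc7a11* stood at 112 normalized counts (104 reads) in control replicate 1, where the other 5 controls were at 0. With 5 values at 0, any reads in the remaining control give a gap of the whole range, so the rate of 1 in 20 does not hold there.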

How the results depend on the processing

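Counts of calls depended on the samples and the tool. Increased genes numbered 2264, with 1351 under the *Ddx3y* covariate, 1022 for laser replicates 1 to 3 alone and 987 for replicates 4 to 6 alone. Decreased genes numbered 1247, with 2170 in DESeq2, 739 under the covariate, 115 with laser replicate 4 alone, and 540 and 575 in these sets of 3. Leaving out 1 sample gave 1737 to 2319 increased and 1022 to 1455 decreased genes. Of the 10 genes, 3 were increased, with 1 and 0 in the sets of 3 and 1 at the DEG threshold. When 1 sample was left out, 3 to 4 were increased. With replicate 4 as the only laser sample, the log2FC was 0.19 for *Prdx1*, 0.18 for *Gpx4*, 4.12 for *Slc7a11* and -0.33 for *Nfe2l2*. With all laser samples it was 0.63, 0.54, 5.32 and -0.30. The 1 decreased gene, *Nfe2l2*, was lost (0 called) with TMM or total-read scaling, no trend, edgeR, the replicate block and the covariate. It was also lost with either set of 3 and at the DEG threshold, and leaving out 1 sample gave 0 to 1.

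The replicate numbers do not pair the samples (correlations of same-numbered samples between -0.05 and 0.07, and 1 of 6 controls correlated best with its own number). With the replicate block 1885 genes were increased, 975 were decreased, and *Nfe2l2* had padj = 0.071 in limma. The ratio of *Nfe2l2* to *Keap1* ranged from -0.095 to 0.049 and that of *Gclc* to *Gclm* from -0.10 to 0.26 when 1 sample was left out, and no ratio passed under any alternative run. Signs turned in uncalled genes near 0: *Gclc* (-0.033 to 0.21 when 1 sample was left out), *Gclm* (-0.11 under the covariate, -0.21 in replicate 4 alone, -0.11 in replicates 1 to 3, and -0.066 to 0.14 when 1 sample was left out) and *Srxn1* (-0.25 in replicate 4 alone). The causes were not tested beyond the fewer samples of some fits. A filter of 10 normalized counts in 6 samples removed *Nqo1*, whose 40 reads set what depth can show.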
